A study of Rattus norvegicus with 70 samples.

Results

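The Notch pathway was followed in 3 fat depots of rats through 10 of its genes: the receptor genes Notch1, Notch2, Notch3 and Notch4, the ligand genes Dll4 and Jag1, the feedback inhibitor gene Nrarp, and the target genes Hes1, Hey1 and Heyl. They were chosen by name with earlier results of these data known, and all 10 were found in the count tables, which hold 15319 genes each. Which measured values, if any, selected them is not stated, so their p-values, adjusted over all genes tested, are read as descriptions of chosen genes rather than as evidence that the pathway as a whole stands out.

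The libraries came from Sprague-Dawley rats, an outbred strain, exposed in adolescence either to PCB 52 in inhaled air or to sham conditions. PCB 52 is a chlorinated biphenyl, a member of a class of persistent industrial chemicals. Rats arrived at 28 days of age. Males entered exposure at 39 days of age and females at 42 days, and it lasted 4 hours a day for 28 days in a nose-only system, with air at 12 L/min. What the sham rats breathed is not given in the sources used here. The groups were male PCB 52, male sham, female PCB 52 and female sham, each sampled in 3 depots: brown fat (BAT), fat under the skin (SAT) and visceral fat (VAT). That made 12 groups and 70 libraries, numbered 1 to 24 as animals, with 6 libraries in each group except male VAT PCB 52 and female SAT sham, which had 5 each. No group carries a genetic alteration by its labels. Sex, age at the start of exposure and deposited table differed together, so a difference between males and females cannot be told apart from one between ages or tables.

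Notch receptors are read by cells that touch each other: a ligand such as Jag1 or Dll4 on one cell triggers cleavage of the receptor on its neighbour, and the freed intracellular part binds the DNA-binding protein RBPJ and switches on target genes. Hes1, Hey1 and Heyl encode basic helix-loop-helix repressors that are textbook targets, and Nrarp, itself switched on by Notch, encodes a small ankyrin-repeat protein that damps the signal. Dll4 and Notch4 are best known from endothelium, Notch3 and Heyl from pericytes and vascular smooth muscle, and in mice Notch signalling in white adipocytes is known to restrain the browning programme.

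The promoters of Hes1, Nrarp and Heyl are shown because the depot and sex differences of these targets and of the feedback inhibitor are described below. Each runs from 250 bases before to 50 bases after the start of the gene, 5′ to 3′ on the gene's strand, from RefSeq on the GRCr8 build, which is not the rn6 build named for the counts. Capitals mark TGGGAA, the core letters of the RBPJ motif, or its reverse complement TTCCCA.
Hes1 (chr11:84212996-84213295, minus strand): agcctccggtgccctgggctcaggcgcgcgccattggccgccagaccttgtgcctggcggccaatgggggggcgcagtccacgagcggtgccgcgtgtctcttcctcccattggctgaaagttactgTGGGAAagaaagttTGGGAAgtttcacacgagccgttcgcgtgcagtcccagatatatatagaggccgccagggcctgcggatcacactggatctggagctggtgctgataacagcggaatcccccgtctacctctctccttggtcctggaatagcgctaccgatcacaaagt
Nrarp (chr3:28390495-28390794, plus strand): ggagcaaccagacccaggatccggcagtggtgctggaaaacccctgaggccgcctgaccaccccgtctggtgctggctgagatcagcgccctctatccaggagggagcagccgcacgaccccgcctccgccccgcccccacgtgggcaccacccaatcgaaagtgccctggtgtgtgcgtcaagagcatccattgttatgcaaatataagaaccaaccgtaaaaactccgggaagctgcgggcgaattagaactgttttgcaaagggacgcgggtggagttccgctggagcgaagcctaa
Heyl (chr5:140793021-140793320, plus strand): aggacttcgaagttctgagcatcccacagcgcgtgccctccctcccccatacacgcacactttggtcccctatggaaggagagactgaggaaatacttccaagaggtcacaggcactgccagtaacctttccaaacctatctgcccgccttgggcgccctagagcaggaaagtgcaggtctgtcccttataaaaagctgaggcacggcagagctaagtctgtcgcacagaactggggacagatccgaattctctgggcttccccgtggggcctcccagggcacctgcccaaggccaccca
Of the 10 genes, 8 had a promoter in the RefSeq table. Hes1 held 2 matches, with their first bases at positions -123 and -109, and Notch4 held 2, at -246 and -93. Notch3 held 1, at position 43 after the start, and the windows of Nrarp, Notch1, Notch2, Jag1 and Heyl held none. Among all 33469 promoters of 300 bases, 25.7% held the letters on either strand and 3.85% held them 2 or more times. A match describes these letters only.

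Total counts per library ran from 4604116 to 9707132, and a count of 0 allowed up to 0.309 to 0.652 CPM in a library (3 counts), which covers counting error only. CPM values are counts scaled to a common library size, here with library sizes adjusted by the trimmed mean of M values (TMM). The 0.309 to 0.652 CPM above used plain library totals, without TMM. In female SAT sham animal 8, with a TMM factor of 0.5961, 3 counts stand higher on the adjusted scale than on the plain one. Hey1 was the member with the fewest reads, at 0 CPM in female SAT sham animal 8 and up to 14.39 CPM elsewhere. Since transcript lengths were not used, levels are compared between groups and never between genes. BAT was marked by brown adipocyte genes, with summed medians of 8293 to 9264 CPM per group. In the SAT and VAT groups these medians were 16.44 to 52.66 CPM. Single libraries there reached 590.4 CPM in female VAT sham and 305.4 CPM in male SAT PCB 52. The brown adipocyte gene Ucp1 was at 364.1 and 220.1 CPM in female VAT sham animals 4 and 8. Within BAT, female PCB 52 animal 24 had the lowest sum of brown adipocyte genes (182.6 CPM) and, within its group, the most skeletal muscle transcripts (40780 CPM). Elovl3 was at 0 in all female sham and all male PCB 52 BAT libraries. Group medians of summed adipocyte genes ran from 6557 CPM in female SAT sham to 33210 CPM in female VAT sham. By a set rule, 7 libraries were taken to stand apart. In each of the 6 tables the rule took the library lowest in rank correlation with its table. It also took male VAT PCB 52 animal 13, with 367 expressed genes at 0. Since 1 library per table was taken whatever the spread, being taken does not by itself make a library an outlier. Rank correlations ran from 0.5083 to 0.8960 in those 6, while male SAT PCB 52 animal 23, not taken, had 0.8169. In BAT and SAT the libraries taken are female BAT PCB 52 animal 24, male BAT PCB 52 animal 23, female SAT sham animal 8 and male SAT PCB 52 animal 19. In VAT they are female PCB 52 animal 20, male sham animal 7 and that male PCB 52 animal 13, whose 10 member genes all had reads. The library labelled male VAT PCB 52 animal 13 had 0 CPM of the Y-linked genes Ddx3y and Eif2s3y, which ran from 47.70 to 71.94 CPM and from 48.36 to 88.18 CPM in the other male VAT libraries, and also 0 CPM of Xist. Female VAT sham animal 8 had 1.298 CPM of Ddx3y and 2.207 CPM of Eif2s3y, while the other female VAT libraries had 0 CPM of both. Member values that changed call without the 7 libraries are given below.

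**Figure D1:**
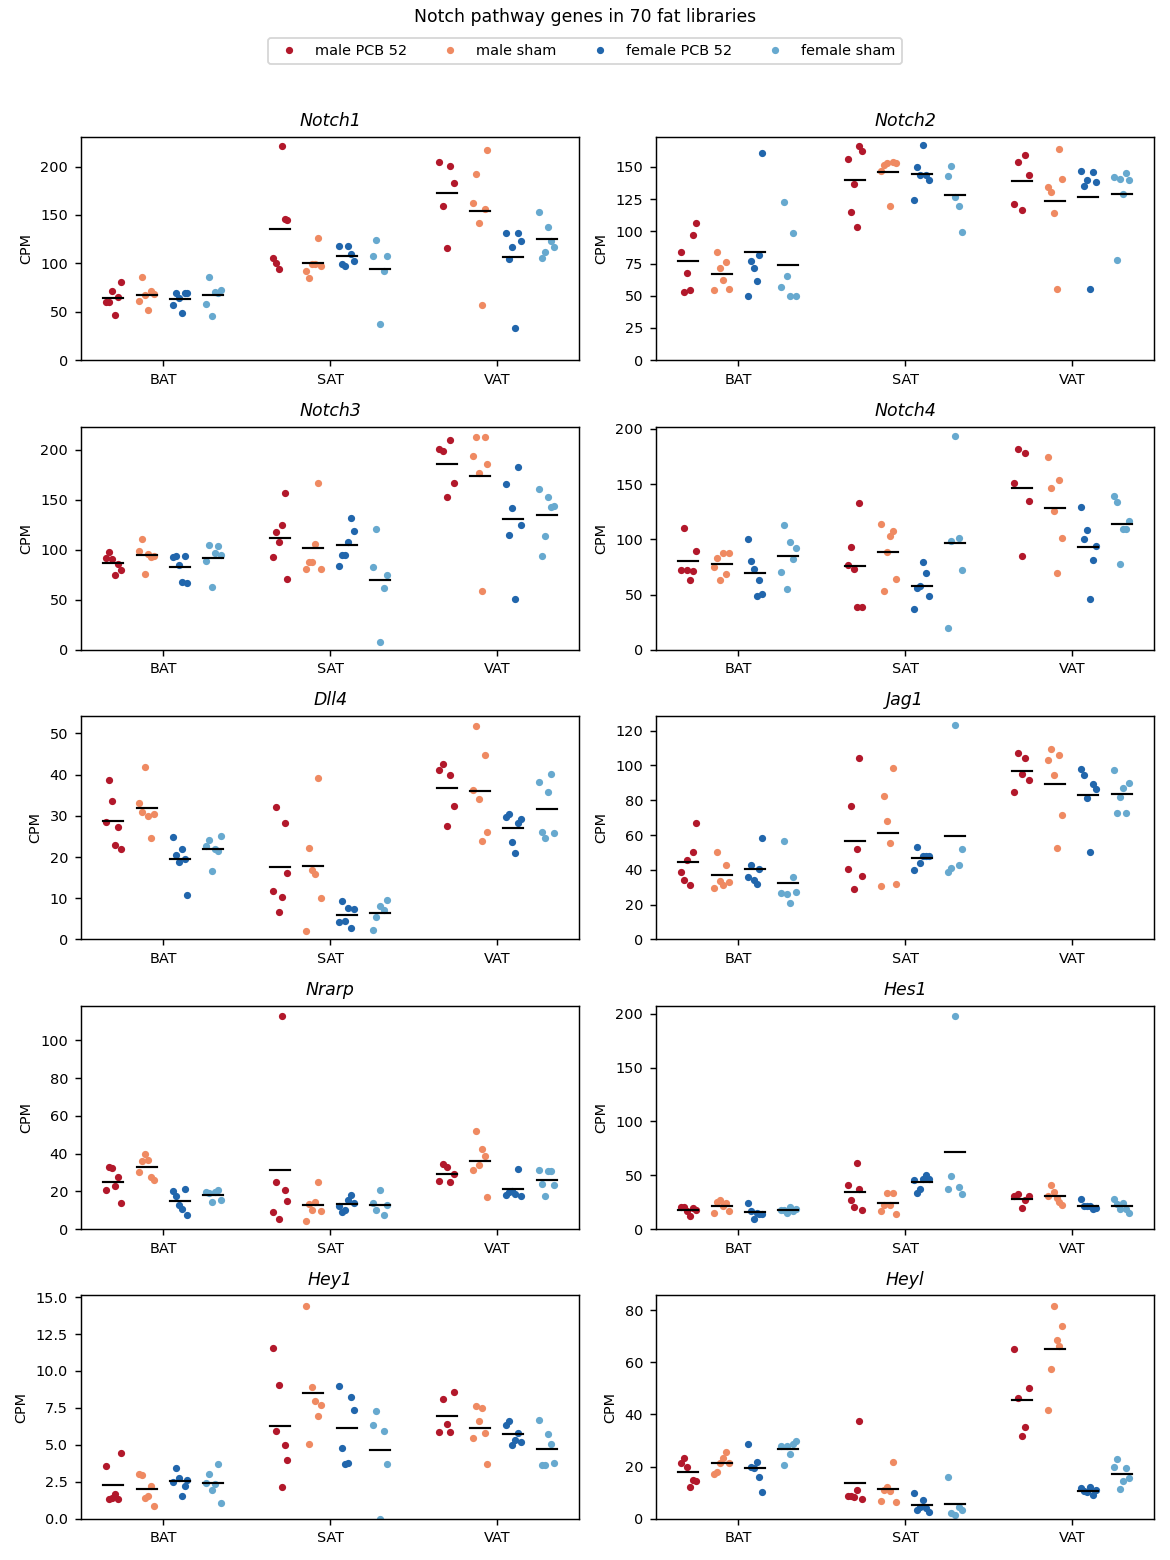
Level of each of the 10 Notch pathway genes in CPM (y axes, each starting at 0) in every library of BAT, SAT and VAT; points are libraries, black bars are group means, and colours give male PCB 52, male sham, female PCB 52 and female sham. Heyl reaches 31.78 to 81.61 CPM in male VAT and stays at or below 37.52 CPM in every other group, and 1 male SAT PCB 52 library holds Nrarp at 112.9 CPM.

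After PCB 52 inhalation, none of the 10 genes passed an adjusted p of 0.05 in any of the 6 pairings of sex and depot in edgeR's quasi-likelihood test, and Hey1 was too low to be tested in male BAT. The background was as empty: of 10687 genes in male BAT, 11459 in male SAT, 11357 in male VAT, 10686 in female BAT, 11824 in female SAT and 11143 in female VAT, 0 were called (0%). At an unadjusted p under 0.05 the counts over all genes were 1054, 165, 715, 388, 605 and 1066 in that order, and the members among them were Heyl alone in male VAT, female BAT and female VAT. DESeq2 called 14, 0, 2, 0, 0 and 37 genes, with Heyl in female VAT as the 1 member. In male BAT it gave Nrarp and Heyl no adjusted p, so neither could be called there. With both sexes in a fit, 1 gene of 11032 passed in BAT (0.00906%), 0 of 12157 in SAT and 0 of 11664 in VAT, none of them a member. Unadjusted, 1215, 333 and 804 genes had a p under 0.05. The effect of PCB 52 was not found to differ between sexes for any of the 10 genes, and 0 genes were called in that interaction in any depot (0%), with 266, 792 and 1243 genes at an unadjusted p under 0.05 in BAT, SAT and VAT. DESeq2 called 11 genes in the VAT interaction, none a member.

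Heyl in VAT came closest. In female VAT, Heyl had a lowest, median and highest level of 9.034, 10.77 and 12.23 CPM in the PCB 52 libraries, against 11.57, 17.56 and 22.83 CPM in the sham libraries. Of the 6 sham libraries, 5 lay above every PCB 52 library, and the groups overlapped between 11.57 and 12.23 CPM. In male VAT, Heyl stood at 65.08, 46.44, 31.78, 35.13 and 50.08 CPM in the 5 PCB 52 libraries, against 41.57 to 81.61 CPM with a median of 67.42 CPM in the sham libraries. The male groups overlapped over much of their range. The log2 fold change was -0.69 (SE 0.155, adjusted p = 0.340) in females and -0.50 (SE 0.216, adjusted p = 0.747) in males. Over both sexes it was -0.59 (SE 0.133, unadjusted p = 1.72e-04, adjusted p = 0.287), and it lay between -0.68 and -0.55 when any 1 library was left out. DESeq2 gave an adjusted p of 0.0270 in female VAT and of 0.0523 over both sexes, so the female call depends on the tool.

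Most endothelial and mural markers also had negative estimates in female VAT, none past the test. Of the 17 endothelial markers tested in female VAT, 16 had a negative estimate and 1 a positive one (median log2 fold change -0.21, against 0.01 over all genes), and of 11 mural markers 9 were negative (median -0.13). The 7 arterial endothelial markers did not lean that way in female VAT, with 3 positive and 4 negative estimates (median -0.04) and summed group medians of 789.9 CPM in PCB 52 and 615.4 CPM in sham libraries. In male VAT the numbers were 12 of 17 (median -0.07) and 7 of 11 (median -0.04). Summed endothelial levels were 1003 to 1584 CPM in female VAT PCB 52 libraries and 1362 to 1719 CPM in sham libraries, with a defining marker at 0 throughout in neither group. Both mesothelial markers in the VAT fits had positive estimates (median 0.38 in females and 1.03 in males). Their part in the result was not tested. In bulk tissue, fewer cells of a type and less RNA per cell cannot be told apart.

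Nrarp, the feedback inhibitor, had a negative estimate in both BAT and VAT of each sex. In male BAT its lowest, median and highest levels were 13.73, 25.32 and 33.05 CPM in PCB 52 libraries, against 26.12, 33.13 and 40.04 CPM in sham libraries. In female BAT they were 7.398, 15.24 and 21.15 CPM in PCB 52 libraries, against 14.23, 19.37 and 20.47 CPM in sham libraries. The groups overlapped in both sexes. Without the libraries that stood apart the Nrarp estimate in BAT was -0.27 in place of -0.39 in males and -0.14 in place of -0.28 in females. Over both sexes the log2 fold change of Nrarp was -0.34 in BAT (SE 0.152, adjusted p = 0.412; -0.20, adjusted p = 0.545, without those libraries) and -0.30 in VAT (SE 0.146, adjusted p = 0.722), and that of Heyl in BAT was -0.36 (SE 0.132, adjusted p = 0.295). In male SAT the Nrarp estimate was 1.22 (SE 0.663, adjusted p = 1.000) through 1 library: animal 19 held 112.9 CPM, whereas the rest of the PCB 52 group held 5.32 to 24.77 CPM and the sham libraries 4.478 to 24.93 CPM. Without that library the estimate was 0.23.

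Among receptors and ligands no estimate was called. Notch1, Notch2, Notch3 and Notch4 lay between -0.30 and 0.20 in BAT and VAT of both sexes, with SEs of 0.0989 to 0.309. The 95% interval of Notch3 in male BAT was from -0.33 to 0.10, and that of Nrarp in male SAT was from -0.22 to 2.66. Jag1 was positive in BAT (0.28 in males and 0.32 in females, adjusted p = 0.599 and 0.999). Dll4 estimates ran from -0.25 in female VAT to 0.03 in male VAT. In female SAT the sham group held animal 8, with Hes1 at 197.9 CPM, Jag1 at 123.2 CPM, Notch4 at 193.3 CPM and Notch3 at 8.168 CPM. Without it, the Hes1 estimate there was 0.15 in place of -0.72, that of Jag1 0.12 in place of -0.35, and that of Notch4 -0.31 in place of -0.74. Over the tested members the median log2 fold change was -0.12, 0.04 and 0.10 in male BAT, SAT and VAT and -0.17, -0.04 and -0.15 in female BAT, SAT and VAT, against -0.03 to 0.03 over all genes.

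**Figure D2:**
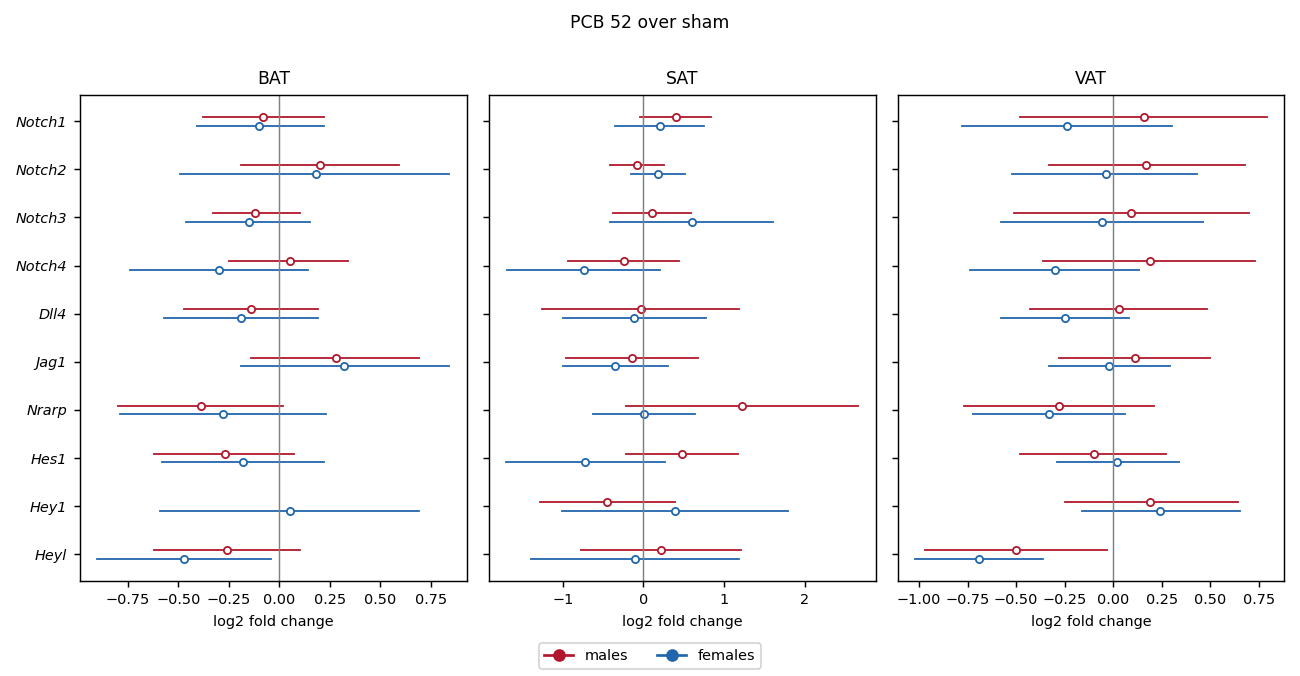
Log2 fold change of PCB 52 over sham (x axes) for each gene (y axis) in BAT, SAT and VAT, males in red and females in blue; points are estimates, open because none was called, and bars are 95% intervals. Heyl lies left of 0 in BAT and VAT of both sexes, and the widest bars are in SAT.

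Between depots many members were called. Set against VAT, male BAT held less of the 4 receptors and of Jag1: 7 of the 10 genes were lower in male BAT under both treatments (Notch1, Notch2, Notch3, Notch4, Jag1, Hey1 and Heyl) and 0 were higher. In female BAT, 4 were lower and 1 higher after PCB 52, and 3 were lower in sham rats. Without the libraries that stood apart the female sham count was 6, while the count over all genes also rose, from 3011 to 5524. Over all genes tested, 32.0% were called in male PCB 52 rats, 49.8% in male sham rats, 44.1% in female PCB 52 rats and 25.5% in female sham rats (11735, 11580, 11810 and 11799 genes tested in that order). The PCB 52 depot and sex contrasts were added after the sham ones had been seen. The depot tests treated libraries as independent, although depots shared rats. Results with the animal number as a block are given at the end.

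Among the receptors, Notch1 had a lowest, median and highest level of 45.61, 67.86 and 85.72 CPM over the 24 BAT libraries, 37.44, 102.7 and 221.2 CPM over the 23 SAT libraries and 33.18, 131.6 and 217.0 CPM over the 23 VAT libraries. Only the low tails of SAT and VAT reached into the BAT range. BAT against VAT gave a log2 fold change of -1.41 in male PCB 52 rats (adjusted p = 1.28e-04), -1.12 in male sham rats (4.81e-04), -0.70 in female PCB 52 rats (0.0155) and -0.90 in female sham rats (0.00784). Notch2 was lowest in BAT, at 49.59, 69.62 and 161.2 CPM, against 99.46, 143.8 and 167.4 CPM in SAT and 54.96, 139.6 and 163.6 CPM in VAT. BAT was lower than SAT for Notch2 in all 4 groups, with log2 fold changes of -0.84 and -1.04 in male PCB 52 and sham rats and -0.73 and -0.79 in female PCB 52 and sham rats (adjusted p from 2.15e-04 to 0.0155). The highest BAT value belongs to female PCB 52 animal 24, 1 of the libraries that stood apart. BAT against VAT for Notch2 was -0.83 and -0.80 in male PCB 52 and sham rats and -0.81 in female sham rats, all called, and -0.53 in female PCB 52 rats (adjusted p = 0.0900). Without the libraries that stood apart that female PCB 52 value was -0.99 and was called (adjusted p = 8.70e-07). Between SAT and VAT, Notch2 estimates ran from -0.02 to 0.24 and none was called.

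By median level Notch3 and Notch4 were highest in VAT, though not every contrast was called. Notch3 ran at 62.95, 92.51 and 110.8 CPM in BAT, 8.168, 94.65 and 167.1 CPM in SAT and 51.00, 160.6 and 212.9 CPM in VAT. In males SAT was lower than VAT for Notch3 (log2 fold change -0.74, adjusted p = 0.0124 after PCB 52, and -0.78, adjusted p = 0.0318 in sham rats). In females the estimates of -0.31 after PCB 52 and -0.95 in sham rats were not called, but without the libraries that stood apart they were -0.48 (adjusted p = 0.00614) and -0.68 (adjusted p = 0.00878) and were called. The male sham call was lost when any 1 of 8 libraries was left out, with adjusted p up to 0.0720. Notch4 had 49.03, 74.28 and 112.7 CPM in BAT, 19.80, 73.52 and 193.3 CPM in SAT and 46.11, 116.6 and 181.5 CPM in VAT. Between BAT and SAT no Notch4 difference was called (log2 fold changes from -0.19 to 0.31). In sham rats SAT against VAT was not called for Notch4 (-0.55, adjusted p = 0.0641 in males, and -0.24, adjusted p = 0.640 in females). In females BAT against VAT was not called for Notch4 (-0.37, adjusted p = 0.206 after PCB 52, and -0.43, adjusted p = 0.405 in sham rats). SAT was lower than VAT for Notch4 after PCB 52, with log2 fold changes of -0.95 in males (lost without any 1 of 14 of 17 libraries, adjusted p up to 0.107) and -0.68 in females (-0.56 and lost without VAT animal 14, adjusted p = 0.0519). The male PCB 52 call of BAT against VAT for Notch4 (-0.84) was lost without any 1 of 8 libraries, with adjusted p up to 0.0856, and that of Notch3 in female PCB 52 rats (-0.59) without any 1 of 6, with adjusted p up to 0.0920. For Notch1, SAT against VAT in male sham rats (-0.63, adjusted p = 0.0461) lost its call without any 1 of 16 of 18 libraries.

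The ligands split the depots differently. Dll4, a ligand of tip and arterial endothelial cells, was lowest in SAT: its levels were 10.89, 24.37 and 41.86 CPM in BAT, 2.079, 9.263 and 39.14 CPM in SAT and 20.96, 30.51 and 51.67 CPM in VAT. In females the SAT range, 2.386 to 9.483 CPM, lay below every BAT and VAT library. BAT exceeded SAT there by a log2 fold change of 1.74 (SE 0.249) after PCB 52 and 1.76 (SE 0.279) in sham rats, with adjusted p of 7.52e-06 and 6.91e-05. SAT against VAT gave -2.16 and -2.29 in those rats. In males the BAT excess over SAT was 0.73 and 0.92 and was not called (adjusted p = 0.0744 and 0.0605), though DESeq2 called the sham value (adjusted p = 0.0477). Jag1, a ligand of endothelium and smooth muscle, had 20.96, 35.02 and 67.10 CPM in BAT, 29.18, 47.98 and 123.2 CPM in SAT and 50.18, 90.00 and 109.7 CPM in VAT. BAT was below VAT for Jag1 in all 4 groups, with log2 fold changes of -1.09 and -1.20 in male PCB 52 and sham rats and -0.97 and -1.38 in female PCB 52 and sham rats (adjusted p from 1.05e-04 to 0.00755). The Jag1 calls of BAT against SAT in sham rats depended on single libraries: -0.88 in females was -0.39 without SAT animal 8 and lost the call, as it did without BAT animal 8 (-0.78), and -0.65 in males lost it without any 1 of 8 libraries.

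Endothelial markers were also called between depots. In SAT against VAT, 6 of 17 endothelial markers were lower in male PCB 52 rats, 10 in male sham rats, 16 in female PCB 52 rats and 14 in female sham rats, and 0 were higher in any of them (medians of -0.86, -0.87, -1.20 and -1.29). Of 7 arterial endothelial markers 1, 2, 5 and 3 were lower in SAT in that order, and 1 was higher in each male group. Mural markers went both ways there: of 11, 1, 1, 4 and 5 were higher and 0, 1, 3 and 3 lower. The summed endothelial level was 418.8 to 985.0 CPM in female SAT libraries and 1003 to 1719 CPM in female VAT libraries. In male SAT it ran from 469.1 to 1729 CPM. Dll4 in male SAT also spread widely, as did the summed mammary epithelial markers. In the PCB 52 libraries of animals 13, 15, 17, 19, 21 and 23, Dll4 was 11.70, 32.01, 6.771, 10.28, 28.34 and 16.18 CPM, beside 69160, 842.5, 304500, 2501, 14.44 and 18890 CPM of mammary markers. In the sham libraries of animals 1, 3, 5, 7, 9 and 11, Dll4 was 2.079, 22.09, 16.89, 15.98, 39.14 and 10.11 CPM, beside 274400, 1602, 71920, 82790, 9.919 and 208000 CPM of mammary markers. Dll4 was highest in the libraries with the least of these markers, animals 15 and 21 (PCB 52) and 9 (sham), but animal 19 (PCB 52), with 2501 CPM of them, had 10.28 CPM of Dll4 and the least endothelial signal, 469.1 CPM. In BAT against SAT, 3 and 7 of 17 endothelial markers were higher in male PCB 52 and sham rats (medians 0.28 and 0.46). In female PCB 52 and sham rats, 12 of 17 were higher in each (medians 0.77 and 1.06). The number lower was 1 in female sham rats and 0 in the other groups. In BAT against VAT, endothelial markers were lower for 4, 6, 7 and 1 of 17 and higher for 0, 2, 2 and 1 in male PCB 52, male sham, female PCB 52 and female sham rats. Of 8 adipocyte markers 1, 3, 3 and 3 were lower in BAT and 0 higher. All 7 skeletal muscle markers were higher in BAT in all 4 groups, with summed group medians of 9135 to 20500 CPM in BAT and 22.22 to 25.79 CPM in VAT. The part of cell make-up in these depot differences was not tested.

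Nrarp was lowest in SAT, at 7.398, 20.53 and 40.04 CPM in BAT, 4.478, 13.43 and 112.9 CPM in SAT and 16.93, 29.46 and 52.23 CPM in VAT. SAT was below VAT for Nrarp in male sham rats (log2 fold change -1.48, adjusted p = 0.00332), in female PCB 52 rats (-0.68, 0.0188) and in female sham rats (-1.02, 0.00290). The female PCB 52 call was lost without VAT animal 22 (-0.53, 0.0604). In male PCB 52 rats the estimate was 0.05, and -0.95 without animal 19. BAT exceeded SAT in male sham rats by 1.43 (SE 0.307, adjusted p = 8.44e-04), and in female sham rats the estimate of 0.48 (adjusted p = 0.107) was 0.76 and called without the libraries that stood apart (adjusted p = 0.00378), whereas the estimate in male PCB 52 rats was -0.25, or 0.74 without animal 19 (adjusted p = 0.0702).

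Hes1, the most general of the targets, was highest in female SAT. Its levels in female SAT were 33.75, 46.13 and 49.84 CPM after PCB 52, and in the 5 sham libraries 37.7, 49.21, 197.9, 38.75 and 32.48 CPM, against 9.796 to 24.26 CPM in all female BAT libraries and 14.88 to 28.24 CPM in all female VAT libraries. Every female SAT library thus lay above every female BAT and VAT library. BAT was lower than SAT by log2 fold changes of -1.42 after PCB 52 (adjusted p = 9.46e-07) and -2.01 in sham rats (4.98e-04), and SAT was higher than VAT by 1.00 (5.68e-05) and 1.74 (0.00206). Without female SAT sham animal 8 the sham values were -1.12 and 0.88 and stayed past the threshold. Female SAT was also rich in mammary epithelial markers, with sums of 3266 to 31900 CPM after PCB 52 and 5083 to 25580 CPM in sham rats. These sums reached at most 68.47 CPM in female VAT and 6.840 CPM in female BAT. Of 8 adipocyte markers, 8 were lower in female SAT than in VAT after PCB 52 and 5 in sham rats. The part of this tissue make-up in the Hes1 difference was not tested. In males, Hes1 was lower in BAT than in SAT after PCB 52 (-0.89, adjusted p = 0.0108) and not called in sham rats (-0.06). Hey1, a target known from endothelium, was lowest in BAT, at 0.8856, 2.289 and 4.473 CPM, against 0, 6.323 and 14.39 CPM in SAT and 3.655, 5.810 and 8.603 CPM in VAT. It was below SAT in BAT of male PCB 52 rats (-1.41), male sham rats (-1.97) and female PCB 52 rats (-1.21), and the female sham estimate of -0.95 was called only without SAT animal 8 (-1.21, adjusted p = 0.00267).

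Heyl, the target known from vessel walls, was highest in male VAT. Group medians were 46.44 and 67.42 CPM in male VAT PCB 52 and sham, 17.43 and 21.45 CPM in male BAT PCB 52 and sham, and 8.740 and 10.86 CPM in male SAT PCB 52 and sham. In females they were 19.80 and 27.91 CPM in BAT PCB 52 and sham, 10.77 and 17.56 CPM in VAT PCB 52 and sham, and 4.294 and 3.319 CPM in SAT PCB 52 and sham. In the order of medians, a gap between neighbours with no overlap of libraries fell once, between male VAT PCB 52 (lowest 31.78 CPM) and female BAT sham (highest 29.63 CPM). In females BAT was higher than SAT by 1.95 after PCB 52 (SE 0.280, adjusted p = 7.97e-06) and by 2.24 in sham rats (SE 0.443, adjusted p = 5.45e-04). Female BAT was also higher than VAT after PCB 52, at 0.90 (adjusted p = 0.0113). The female sham estimate of 0.62 there was not called (adjusted p = 0.279). In male PCB 52 and sham rats, BAT against VAT gave -1.34 and -1.53 (adjusted p = 0.0136 and 5.45e-05), and SAT against VAT gave -1.75 and -2.50 (adjusted p = 0.0135 and 5.69e-06). Without the libraries that stood apart, BAT against VAT in male PCB 52 rats was -1.10 and was not called (adjusted p = 0.0546). In females SAT was also below VAT, at -1.05 after PCB 52 and -1.62 in sham rats; the sham value was -2.55 without SAT animal 2, which held 16.1 CPM while the other 4 libraries held 1.588 to 4.363 CPM.

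The background of the other depot contrasts was high. BAT against SAT called 39.3% of genes in male PCB 52 rats, 55.3% in male sham rats, 63.4% in female PCB 52 rats and 47.6% in female sham rats, where 4, 5, 6 and 5 of the 10 members were called. SAT against VAT called 10.2%, 23%, 54.6% and 39.7% of genes in the same order, and 4, 4, 6 and 4 members. The male PCB 52 count in SAT against VAT was 2 without the libraries that stood apart, and Notch4 and Dll4 there had an adjusted p of 0.0498 each. Dll4 in that contrast lost its call without any 1 of 15 of 17 libraries.

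**Figure D3:**
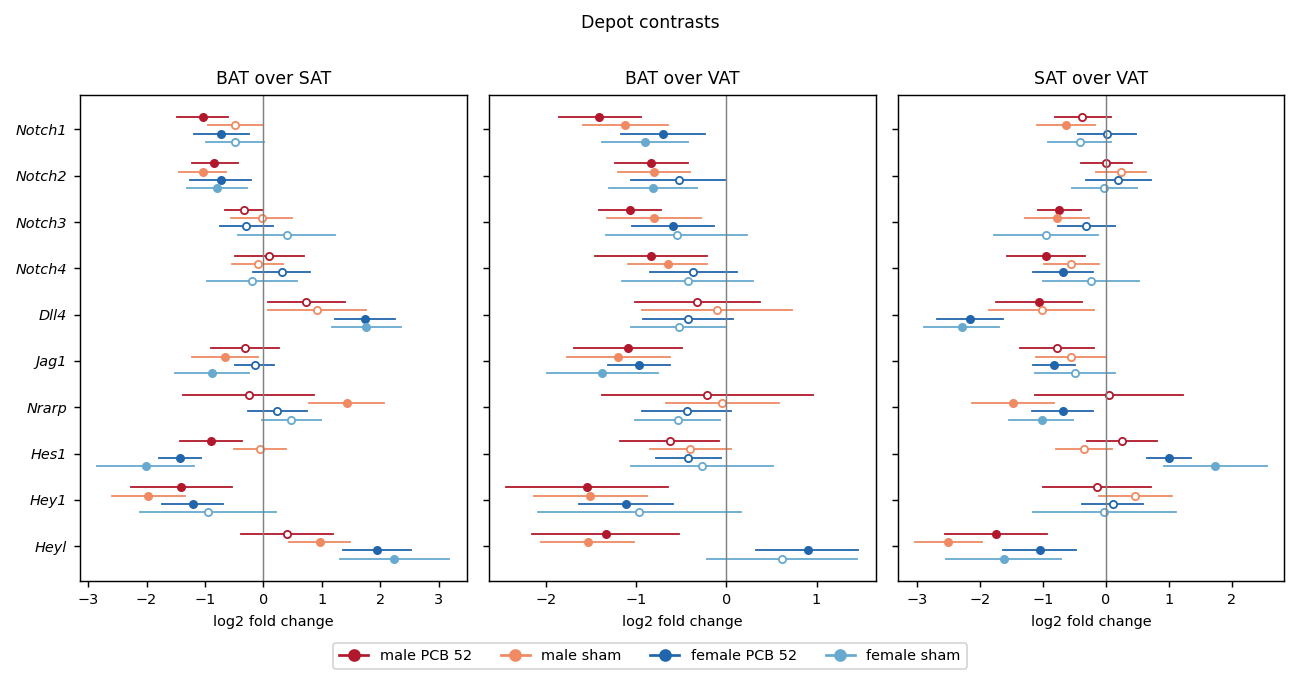
Log2 fold change between depots (x axes) for each gene (y axis), BAT over SAT, BAT over VAT and SAT over VAT, in male PCB 52, male sham, female PCB 52 and female sham rats; points are estimates, filled where the adjusted p is under 0.05, and bars are 95% intervals. BAT over VAT lies left of 0 for the receptors and Jag1 in all 4 groups, while Heyl lies right of 0 in females and left of 0 in males.

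Between the sexes, Heyl was higher in male than in female VAT under both treatments. Male VAT held 31.78 to 65.08 CPM after PCB 52 and 41.57 to 81.61 CPM in sham rats, against 9.034 to 12.23 CPM and 11.57 to 22.83 CPM in female VAT under those treatments. No male library overlapped a female one. The log2 fold change of male over female was 2.11 after PCB 52 (SE 0.178, adjusted p = 7.09e-05) and 1.93 in sham rats (SE 0.188, adjusted p = 1.02e-04), and it stayed past the threshold when any 1 library was left out. Without the library labelled male VAT PCB 52 animal 13 it was 1.94 after PCB 52, and without the libraries that stood apart it was 1.98 after PCB 52 and 1.92 in sham rats. Over all genes 7.51% were called in PCB 52 VAT and 11.5% in sham VAT. Heyl was the 1 member called in each. In BAT the Heyl estimates were -0.12 and -0.31 and were not called; whether the sex difference varied by depot was not tested. Mural markers were higher in male VAT for 1 of 11 after PCB 52 and 3 of 11 in sham rats (medians 0.34 and 0.45) and endothelial markers for 3 and 4 of 17 (medians 0.35 and 0.22), and all 6 macrophage markers had negative estimates in both. Summed mural levels were 1224 to 1981 and 941.5 to 1893 CPM in male PCB 52 and sham VAT, against 1145 to 1718 and 1363 to 1807 CPM in female PCB 52 and sham VAT, groups that overlap. Their part in the Heyl difference was not tested.

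In BAT the member called was Nrarp. Sham males held 30.37, 35.89, 40.04, 36.37, 27.58 and 26.12 CPM and sham females 19.81, 18.96, 14.23, 19.79, 20.47 and 15.24 CPM, so the groups did not overlap. The log2 fold change was 0.87 (SE 0.132, adjusted p = 0.0238), in a contrast where 7 of 10730 genes were called (0.0652%). The call was lost when any of 8 of the 12 libraries was left out (female animals 2, 6, 8 and 12 and male animals 1, 3, 5 and 7), with adjusted p between 0.0188 and 0.113 and estimates between 0.78 and 0.92. After PCB 52 the estimate was 0.74 (SE 0.274, adjusted p = 0.999), with male libraries at 13.73 to 33.05 CPM and female libraries at 7.398 to 21.15 CPM. There 4 genes were called (0.0376%). Dll4 was also higher in males by estimate, at 0.57 after PCB 52 and 0.55 in sham BAT (adjusted p = 0.999 and 0.285), and DESeq2 called the sham value (adjusted p = 0.0494). Of 17 endothelial markers in sham BAT, 12 had positive estimates (median 0.25), and all 7 skeletal muscle markers tested did (median 1.04). None of them was called, and their part was not tested.

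In SAT no member was called, where 2.17% of genes were called in PCB 52 rats and 1.09% in sham rats. Male over female Dll4 was 1.55 after PCB 52 (SE 0.421, adjusted p = 0.0825) and 1.47 in sham rats (SE 0.600, adjusted p = 0.213). Heyl stood at 1.38 and 1.06 (adjusted p = 0.147 and 0.324), and DESeq2 called both genes in the PCB 52 rats (adjusted p = 0.00683 and 0.0423). Of 17 endothelial markers in SAT, 16 had positive estimates under both treatments (medians 0.67 after PCB 52 and 0.80 in sham rats). Their part was not tested. Hes1 in sham SAT was -1.56 (adjusted p = 0.136), or -0.70 without female animal 8. Hes1 in VAT missed the threshold in sham rats at 0.54 (SE 0.166, adjusted p = 0.0509) and was called there by DESeq2 (adjusted p = 0.0230). In VAT all 10 members had positive estimates after PCB 52 (median 0.48, against 0.00 over all genes) and 9 of 10 in sham rats (median 0.35, against 0.02). DESeq2 also called Nrarp (0.50) and Dll4 (0.46) in PCB 52 VAT, and Notch1 (0.51) and Notch3 (0.57) were called in sham VAT without the libraries that stood apart.

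**Figure D4:**
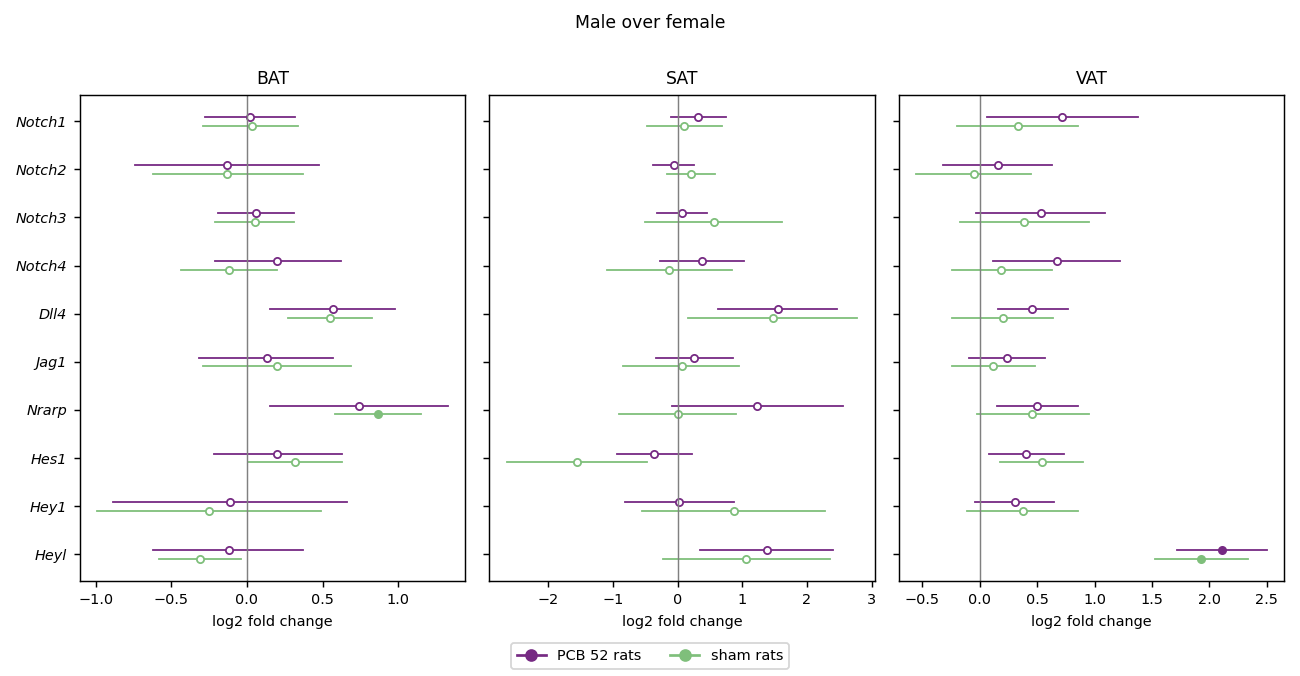
Log2 fold change of male over female (x axes) for each gene (y axis) in BAT, SAT and VAT, PCB 52 rats in purple and sham rats in green; points are estimates, filled where the adjusted p is under 0.05, and bars are 95% intervals. Heyl in VAT sits at 2.11 and 1.93, and Nrarp in sham BAT at 0.87.

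A wider list of 45 further Notch genes (other ligands, proteases, glycosyltransferases, ubiquitin ligases, co-regulators and other Hes and Hey genes), of which 41 are in the tables, gave 0 calls for PCB 52 in every sex and depot. Its median log2 fold change ran from -0.04 to 0.16. Between depots the share called was set beside that of all genes. In male PCB 52, male sham, female PCB 52 and female sham rats, 37, 37, 34 and 37 of them were tested. BAT against SAT gave 2, 8, 6 and 6 higher and 13, 15, 13 and 6 lower in that order. BAT against VAT gave 3, 6, 6 and 5 higher and 9, 17, 11 and 6 lower, and SAT against VAT gave 0, 4, 12 and 5 higher and 2, 9, 9 and 6 lower. The shares called were 40.5%, 62.2%, 55.9% and 32.4% in BAT against SAT, beside 39.3%, 55.3%, 63.4% and 47.6% of all genes. They were 32.4%, 62.2%, 50% and 29.7% in BAT against VAT, beside 32.0%, 49.8%, 44.1% and 25.5%, and 5.41%, 35.1%, 61.8% and 29.7% in SAT against VAT, beside 10.2%, 23%, 54.6% and 39.7%. The list thus lay above the background in some groups and below it in others. Mfng and Lfng encode enzymes that add sugars to the receptors: BAT against VAT gave -1.60 for Mfng in female PCB 52 rats, -1.58 in male sham rats and -1.66 in female sham rats, and SAT against VAT gave -1.21 for Lfng in female PCB 52 rats, -1.31 in male sham rats and -1.53 in female sham rats. In male PCB 52 rats neither was called, at -1.55 for Mfng in BAT against VAT (adjusted p = 0.0719) and -0.98 for Lfng in SAT against VAT (adjusted p = 0.0521). Psen2, a catalytic subunit of the protease that releases the intracellular domain, was lower in BAT than in VAT in all 4 groups (-1.36 and -1.37 in male PCB 52 and sham rats, -1.61 and -1.66 in female PCB 52 and sham rats). Hey2, another target of the same family, ran the other way, with BAT over VAT at 2.26 and 2.90 in male PCB 52 and sham rats. In female PCB 52 and sham rats it was 1.98 and 1.80 (adjusted p = 9.72e-04 and 0.0253). Mib2, a ubiquitin ligase that promotes ligand endocytosis, was higher in BAT than in SAT in all 4 groups (log2 fold changes of 0.93 to 1.42).

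Between the sexes in VAT, 3 of 36 tested wider genes were higher in males and 1 lower after PCB 52, and 4 were higher and 1 lower in sham rats, shares of 11.1% and 13.9% beside the 7.51% and 11.5% of all genes. Neurl1b, a ubiquitin ligase acting on ligands, was higher by 0.81 after PCB 52 and 1.24 in sham rats (adjusted p = 0.00467 and 0.00304). Hey2 was lower in males, at -1.19 after PCB 52 and -1.47 in sham rats (adjusted p = 0.0487 and 0.0220), opposite in sign to Heyl. In BAT 0 of 35 were called under either treatment, and in SAT 1 of 35, Dtx3, was lower after PCB 52 (-0.84, adjusted p = 0.0448).

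Within groups, pairs of members varied together to different degrees. Deviations of log2 CPM from the group mean had a median Pearson r of 0.16 over the 45 pairs of members in 70 libraries, from -0.39 for Hes1 with Hey1 to 0.78 for Notch1 with Notch3. In the 63 libraries without those that stood apart, the median was 0.28 and Notch1 with Notch3 stood at 0.53. There the highest pairs were Dll4 with Jag1 (0.65), Dll4 with Nrarp (0.63) and Jag1 with Nrarp (0.59), and Dll4 with Hey1 was the lowest (-0.35). Libraries of equal number may come from the same animal, and libraries differ in depth and in cell make-up, so these r are descriptions.

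**Figure D5:**
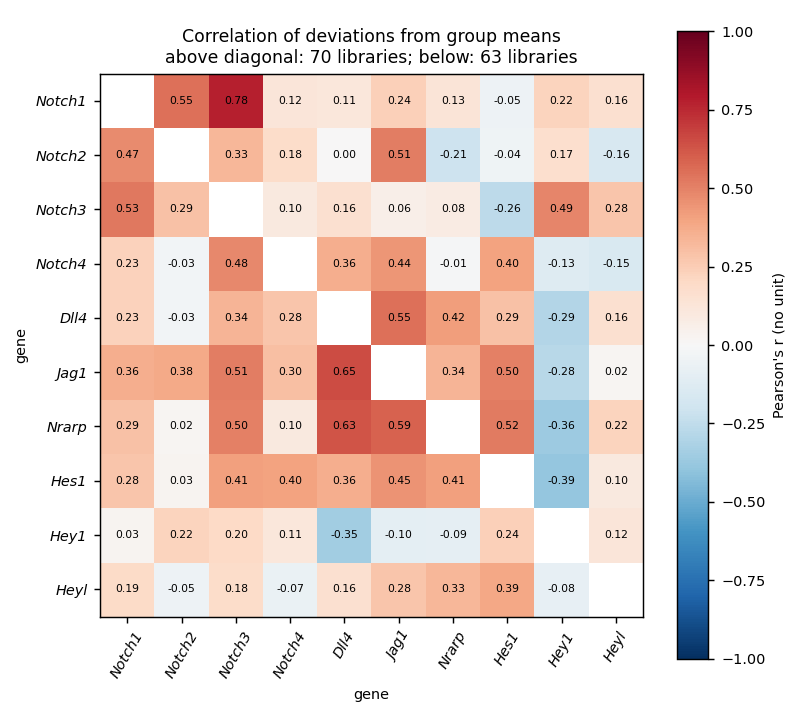
Pearson's r of deviations of log2 CPM from group means for each pair of the 10 genes (both axes), above the diagonal in all 70 libraries and below it in the 63 left without those that stood apart; colour runs from blue at -1 to red at 1. Dll4, Jag1 and Nrarp form the pairs of 0.59 to 0.65 below the diagonal, and Notch1 with Notch3 is the 0.78 above it.

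The genes most like Nrarp among 10740, by the same measure in 70 libraries, were Hmgcs1 (0.72), Echdc1, Pex5, Mbd2 and Ptpa (0.69). In 63 libraries these 5 had r of 0.36 to 0.49, and the highest were Fscn1 (0.73), Pakap, Gper1, Ripor1 and Sh3bp5 (0.70). For Notch3 the 5 were Hipk2, Tsc2, Arhgef12, Erc1 and F8, each at 0.86, with 0.38 to 0.56 in 63 libraries, where Cdc42bpb (0.67), Ajuba, Plod1, Piezo1 and Dip2a (0.62) were highest. The neighbours of both genes changed with the 7 libraries that stood apart: the 5 genes nearest Nrarp in 70 libraries ranked from 392 to 1151 in 63.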

How the data were processed

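RNA from BAT, SAT and VAT was sequenced from a study of 24 rats, and samples with an RNA integrity number below a fixed limit were left out, per the labels' protocols. The submitters' processing notes name FastQC, HISAT2 and the build rn6. How reads were counted, and whether by strand, is not given in the sources used here, so reads of overlapping or antisense genes cannot be told apart. Gene-level counts were deposited by the authors in 6 tables, split by sex and depot. The deposited female VAT table was handled as estimated counts on account of 5 stray spreadsheet lines after the genes, which were dropped; all its gene values are whole, so rounding changed nothing. Gene numbers were matched to symbols in a RefSeq table of GRCr8, with 15230 matched and 89 not.

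The 10 members and all gene lists were chosen with earlier results of these data known. The test was the robust quasi-likelihood F test of edgeR 4.0.16 (R 4.3.3), after filtering by expression at default settings and TMM scaling, with Benjamini-Hochberg adjustment over all genes tested and a threshold of 0.05, SE is the absolute log2 fold change over the square root of F, and 95% intervals use the t quantile at each gene's degrees of freedom in that test. Named genes are the 10 members, from the wider list up to 6 per contrast past the threshold in order of p, of which some are printed, and the 5 genes with the highest Pearson r to Nrarp and to Notch3. Of 30 comparisons, the 9 in PCB 52 libraries were added after the sham ones were seen. Alternatives were DESeq2 1.42.0, its size factors in edgeR, no filter, plain library totals, the animal number as a block, leaving out each library, and, chosen after seeing the data, leaving out 7 libraries that stood apart. The test was checked on simulated data. Replicates within a group are separate animal numbers, and the labels do not say that an equal number in another depot is the same rat. No libraries were merged: among 170 within-group pairs 0 were identical, with a chi-square per gene of at least 7.35.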

Additional observations from a re-analysis of the deposited data

Results flagged for a closer look

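Within groups of 5 or 6 libraries, 17 of 120 combinations of member and group held a library far from the rest. A chance rate of about 1 in 20 would need independent combinations. These share the same 70 libraries, and some libraries were flagged for several members, so the count is not read as an excess over chance. In male SAT PCB 52, Nrarp reached 112.9 CPM in animal 19 and Heyl 37.52 CPM in animal 21. In male SAT sham, animal 9 was highest for Notch1 (126.4 CPM), Notch3 (167.1 CPM) and Heyl (21.85 CPM), and animal 7 lowest for Notch2 (119.8 CPM). Notch3 was lowest in male VAT sham animal 7 (58.67 CPM). In female VAT PCB 52, animal 20 was lowest for Notch1 (33.18 CPM), Notch2 (54.96 CPM) and Jag1 (50.18 CPM), while Nrarp was highest in animal 22 (31.99 CPM) and Hes1 in animal 14 (28.24 CPM). Notch2 was highest in female BAT PCB 52 animal 24 (161.2 CPM) and lowest in female VAT sham animal 4 (77.65 CPM). In female SAT sham, animal 8 was highest for Jag1 (123.2 CPM) and Hes1 (197.9 CPM), and animal 2 for Heyl (16.1 CPM). The low TMM factor of that animal 8 (0.5961) raises its CPM. No member's response to PCB 52 was found to differ between sexes in a test of the difference.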

How the results depend on the processing

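With DESeq2's size factors in edgeR, all 299 member values kept their side of the threshold. DESeq2 itself added 14 member calls and removed 0. In that tally a value without an adjusted p, as for Nrarp and Heyl in male BAT, counted as not called. DESeq2 gave 37 genes and 1 member for PCB 52 in female VAT, 14 in male BAT, 2 in male VAT, 83 and 6 over both sexes in BAT and VAT, and 11 in the VAT interaction. For male over female it gave 66 genes and 2 members in sham BAT, 925 in sham SAT, 2 members in sham VAT, 13 genes in PCB 52 BAT, 1001 and 2 members in PCB 52 SAT, and 1578 and 3 members in PCB 52 VAT; for SAT against VAT in male PCB 52 rats it gave 2157 genes. Without the low-count filter the both-sexes BAT count was 0 and the member count in SAT against VAT of male PCB 52 rats was 2. Without the 7 libraries that stood apart those values were again 0 and 2, BAT against VAT in female sham rats called 5524 genes and 6 members, and male over female called 563 genes in sham SAT, 454 in PCB 52 SAT, 1379 in PCB 52 VAT and 3 members in sham VAT. Nrarp in BAT against SAT of male PCB 52 rats was 0.89 (adjusted p = 0.0312) without them, the opposite sign of the -0.25 with all libraries. Without them 15 of 289 member values gained the call and 4 lost it. The gains not given above were Notch1 in BAT against SAT, at -0.52 in male sham rats (adjusted p = 0.00285) and -0.64 in female sham rats (0.00143), Jag1 there in female PCB 52 rats (-0.29, 0.0113) and in SAT against VAT of female sham rats (-0.95, 0.00128), Notch4 in SAT against VAT of male sham rats (-0.65, 0.0203), and Nrarp (-0.51, 0.0252), Notch3 (-0.52, 0.0214) and Hey1 (-0.94, 0.0127) in BAT against VAT of female sham rats. Another 39 uncalled values changed sign. Without the filter 3 of 299 lost the call. The cause was not tested.

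Leaving out 1 library at a time gave 0 to 1 genes for PCB 52 in male BAT, 0 to 12 over both sexes in BAT, 0 to 2 in VAT and 0 to 3 in the VAT interaction. Male over female gave 15 to 563 genes in sham SAT, 844 to 1633 and 1 to 3 members in sham VAT, 4 to 10 in PCB 52 BAT, 102 to 558 in PCB 52 SAT, 383 to 999 and 1 to 3 members in PCB 52 VAT, and 0 to 1 members in sham BAT. BAT against VAT in female sham rats gave 2307 to 5524 genes and 3 to 6 members. SAT against VAT gave 402 to 2560 genes and 2 to 5 members in male PCB 52 rats and 2 to 6 members in male sham rats.

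The 70 libraries came from 24 rats, so libraries of different depots shared rats, and the main depot tests did not model this. The labels do not say that equal numbers mark the same rat, so which libraries pair was not settled. Over 68 same-number pairs the median r of their deviations was 0.093, with 32 pairs over 0.1. Over 340 other pairs it was -0.022, with 63 over 0.1. With the number as a replicate block in the depot contrasts, BAT against SAT called 4867 genes and 5 members in female sham rats and 6479 and 6 in male sham rats, and over 120 member values 6 gained the call and 2 lost it. The gains were Dll4 in BAT against SAT of male PCB 52 (0.88, adjusted p = 0.0351) and sham rats (1.13, 0.0322), Hes1 in BAT against VAT of male sham (-0.43, 0.0361) and female PCB 52 rats (-0.44, 0.0307), and Jag1 in SAT against VAT of male PCB 52 (-0.99, 0.0498) and sham rats (-0.62, 0.0436). The losses were Notch1 in male sham rats (-0.56, 0.0676) and Notch4 in female PCB 52 rats (-0.62, 0.0522), both in SAT against VAT. Plain library totals moved 6 of 120 group means by over 1 SD. Low counts of Hey1 and wide SEs in SAT limit what could be detected.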
